A study of Mus musculus with 21 samples.

Results

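Interferon-stimulated genes are the genes that cells switch on after interferon binds its receptors. The set described here holds 41 mouse genes of this kind, chosen by symbol, out of 56691 genes in the deposited table. All 41 symbols were found in the table. By role they are 15 antiviral effectors, 5 transcription factors and sensors, 5 immunity-related GTPases, 7 guanylate-binding proteins and 9 regulators and other induced genes.

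RNA of mouse hearts was sequenced in 21 libraries. Control mice (5 libraries) carried no tumor and received normal saline, and DOX mice (5 libraries) carried no tumor and received doxorubicin, an anthracycline chemotherapy drug that damages the heart, by weekly intraperitoneal injection. Tb mice (6 libraries) bore a subcutaneous tumor of 4T1 cells, a murine breast cancer line, and received normal saline, and Tb-DOX mice (5 libraries) bore the tumor and received DOX. Strain, sex and age were not given in the sources used here. The study asked how the heart's response to DOX differs with and without a tumor. The labels name the 4T-1 line as source of every library, whereas the paper describes hearts, and the summed level of 6 cardiomyocyte markers was 10117 to 16102 FPKM in every library. FPKM is the read count per kilobase of exon length, scaled to the total of counted reads in the library, and library totals ran from 13521200 to 18601445 counts. No source says how many animals gave each library, so p-values measure the spread between these libraries.

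Type I interferons signal through the receptor chains IFNAR1 and IFNAR2 to a complex with STAT2 and IRF9, which binds the interferon-stimulated response element (ISRE) in promoters. Interferon gamma signals through IFNGR1 and IFNGR2 to the gamma-activated site (GAS) and also raises IRF1. Antiviral effectors such as the OAS, IFIT and MX proteins act on viral RNA and proteins, whereas immunity-related GTPases and guanylate-binding proteins attack the membranes around intracellular microbes.

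Promoter windows of 300 bases, from 250 bases before to 50 after a start site, were taken from RefSeq on GRCm38.p6, and 33 windows matched 28 of the 41 members. The other 13 are Oas2, Mx1, Mx2, Zbp1, Iigp1, Gbp4, Gbp6, Gbp9, Usp18, Ifi27l2a, Rtp4, Parp9 and Parp14. The ISRE core was searched as GAAANNGAAA on both strands and overlapping matches were counted. It occurred in 19 of the 33 windows (57.6%, 18 members) against 3.44% of all 32851 windows of this length. The GAS was searched as TTCNNNGAA, which reads the same on both strands, and occurred in 8 of the 33 windows (24.2%) against 8.30%. A match is a run of letters and not a shown binding site. The 5 windows below are examples from members described in the results, and each holds an ISRE core, marked by capitals. Other members described there had no match, such as Ifit2 and Oasl2, with 0 ISRE matches in any of their windows.
Igtp, chr11:58199306-58199605, plus strand: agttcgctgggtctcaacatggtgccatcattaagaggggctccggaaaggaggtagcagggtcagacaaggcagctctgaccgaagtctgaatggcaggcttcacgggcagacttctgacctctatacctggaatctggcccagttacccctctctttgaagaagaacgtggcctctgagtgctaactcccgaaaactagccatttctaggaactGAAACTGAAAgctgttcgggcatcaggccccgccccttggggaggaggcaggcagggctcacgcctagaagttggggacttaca
Irgm2, chr11:58214727-58215026, plus strand: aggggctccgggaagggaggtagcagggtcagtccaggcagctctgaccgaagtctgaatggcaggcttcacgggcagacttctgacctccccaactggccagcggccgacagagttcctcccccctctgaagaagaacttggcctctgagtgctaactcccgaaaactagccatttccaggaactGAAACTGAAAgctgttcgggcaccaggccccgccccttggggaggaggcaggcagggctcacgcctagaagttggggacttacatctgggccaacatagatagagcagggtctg
Irgm1, chr11:48871371-48871670, minus strand: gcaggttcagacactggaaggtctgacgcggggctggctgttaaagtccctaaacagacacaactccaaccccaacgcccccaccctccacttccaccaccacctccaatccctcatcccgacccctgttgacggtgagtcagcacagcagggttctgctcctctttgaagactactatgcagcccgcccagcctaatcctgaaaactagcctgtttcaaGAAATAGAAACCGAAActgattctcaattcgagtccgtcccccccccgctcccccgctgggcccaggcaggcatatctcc
Trim30a, chr7:104465144-104465443, minus strand: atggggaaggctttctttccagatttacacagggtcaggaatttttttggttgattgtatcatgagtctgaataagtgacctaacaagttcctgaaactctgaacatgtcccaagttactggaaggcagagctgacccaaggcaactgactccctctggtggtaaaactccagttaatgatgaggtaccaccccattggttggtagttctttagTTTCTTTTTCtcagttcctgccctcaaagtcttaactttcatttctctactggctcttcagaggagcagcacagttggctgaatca
Oas3, chr5:120777610-120777909, minus strand: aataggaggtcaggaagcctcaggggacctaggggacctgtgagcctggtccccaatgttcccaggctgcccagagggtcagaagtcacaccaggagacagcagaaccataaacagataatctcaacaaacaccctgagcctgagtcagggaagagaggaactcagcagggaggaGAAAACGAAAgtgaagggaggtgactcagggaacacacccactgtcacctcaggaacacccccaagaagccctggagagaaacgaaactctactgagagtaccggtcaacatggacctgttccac

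Igtp and Irgm2 are neighbours on chromosome 11, and their windows shared an identical run of 61 bases. In Igtp a GAS match began 45 bases before the start site (position -45) and the ISRE core at -34. In Irgm2 the same pair began at -75 and -64. The Irgm1 window held 2 overlapping ISRE matches at -30 and -24 and no GAS match. Trim30a held the reverse complement of the ISRE core at -36, and Oas3 held an ISRE core at -75.

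Most members were expressed at a low level in these hearts. Of the 41, 36 had a mean of at least 0.5 FPKM over the 21 libraries and were tested, and Oas1a, Oas3, Oasl1, Mx1 and Zbp1 lay below. The most abundant members of their role groups by mean over all libraries were Iigp1 (11 FPKM), an immunity-related GTPase, Ifi27l2a (10.8 FPKM), a small interferon-induced membrane protein, Gbp9 (7.59 FPKM), a guanylate-binding protein, Ifit2 (6.23 FPKM), which hinders translation of viral RNA, and Irf1 (4.95 FPKM), a transcription factor of the interferon gamma response. Oas1a, an oligoadenylate synthetase, had at most 2 counts in any library.

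A single library, DOX replicate 4, stood apart from all others across the set. It was the highest of the 5 DOX libraries in 34 of the 36 tested members, a place it took in 15% of all 13990 genes tested. It was the highest of all 21 libraries in 25 of the 36 members (69.4%) against 5.10% of all genes tested. Relative to the median of the other 4 DOX libraries, on the log2(FPKM + 0.1) scale, the median difference was 1.56 over the 36 members and -0.04 over all genes tested. By role, this median was 4.19 for the immunity-related GTPases, 1.76 for the guanylate-binding proteins, 1.42 for the antiviral effectors, 1.29 for the transcription factors and sensors and 1.06 for the regulators. Ifi27l2a went the other way, at 2.59 FPKM in DOX replicate 4 against a median of 4.13 FPKM in the other 4.

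**Figure D1:**
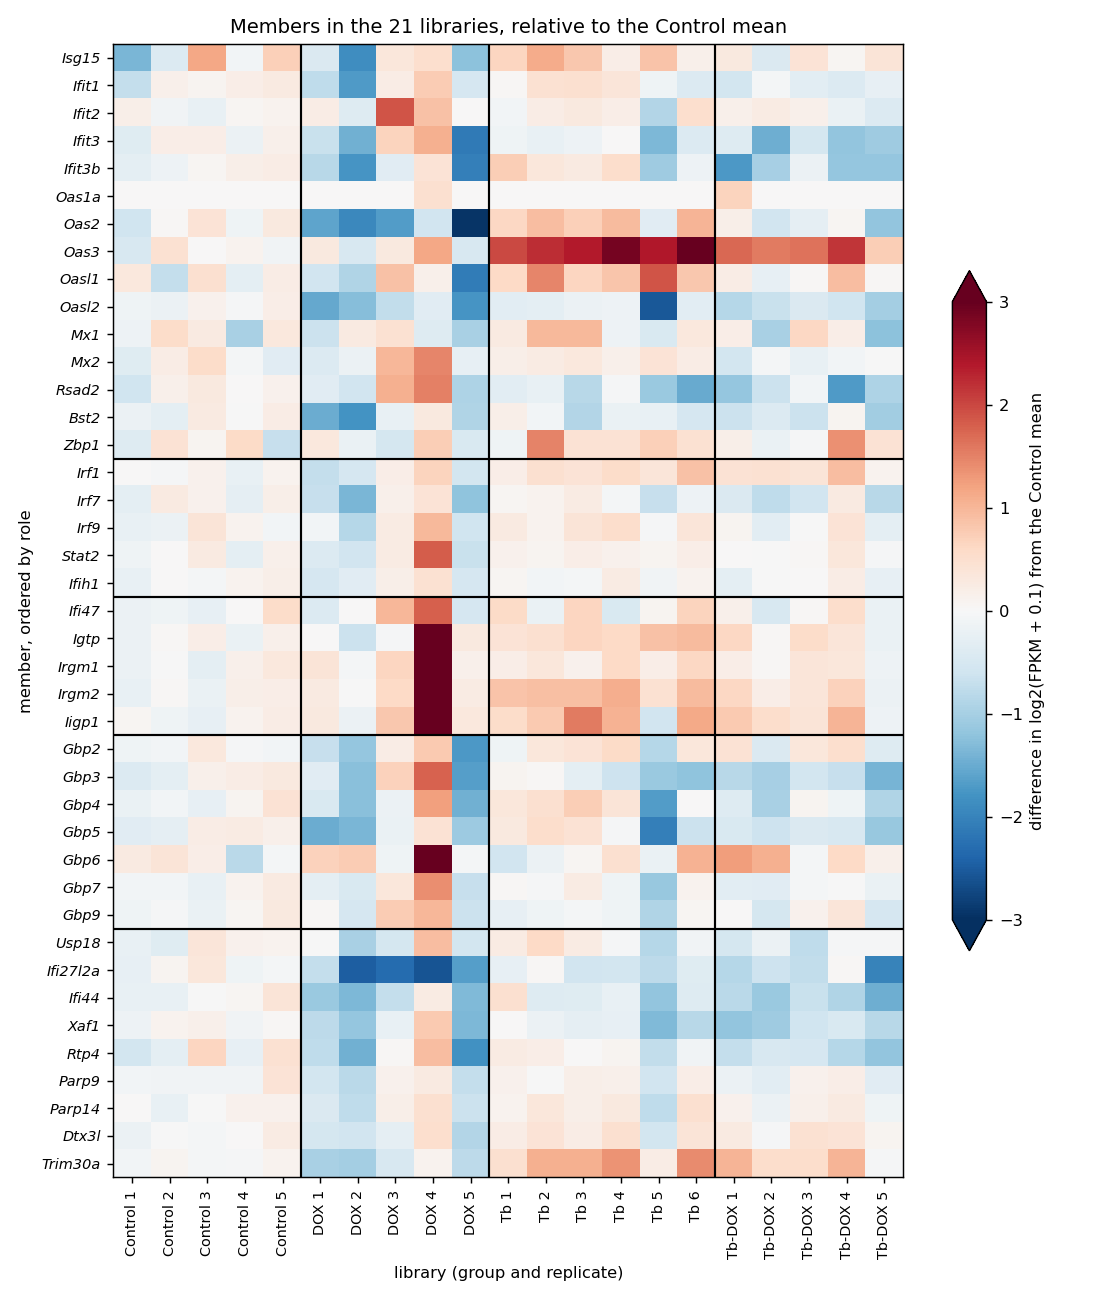
Each of the 41 members (vertical axis, ordered by role: antiviral effectors, transcription factors and sensors, immunity-related GTPases, guanylate-binding proteins, regulators) in each of the 21 libraries (horizontal axis), coloured by the difference in log2(FPKM + 0.1) from the Control mean, with the colour scale ending at 3 in either direction. The column DOX 4 is red in most rows and darkest in the immunity-related GTPases, the columns of DOX 1, 2 and 5 are mostly blue in the antiviral and regulator rows, and Oas3 is red in all Tb and Tb-DOX columns.

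The same split appears in the median over all 41 members of the difference from the Control mean, on the log2(FPKM + 0.1) scale. This median was 0.78 in DOX replicate 4 and -0.46, -0.81, 0.18 and -0.71 in DOX replicates 1, 2, 3 and 5. It lay between -0.19 and 0.17 in the Control libraries and between -0.32 and 0.19 in the Tb-DOX libraries. In 5 of the 6 Tb libraries it lay between 0.19 and 0.26, and in Tb replicate 5 it was -0.55. Tb replicate 5 was the lowest Tb library in 24 of the 36 tested members, a place it took in 43.6% of all genes tested. The DOX libraries thus spread over a wider range than any other group, on both sides of the Control libraries.

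**Figure D2:**
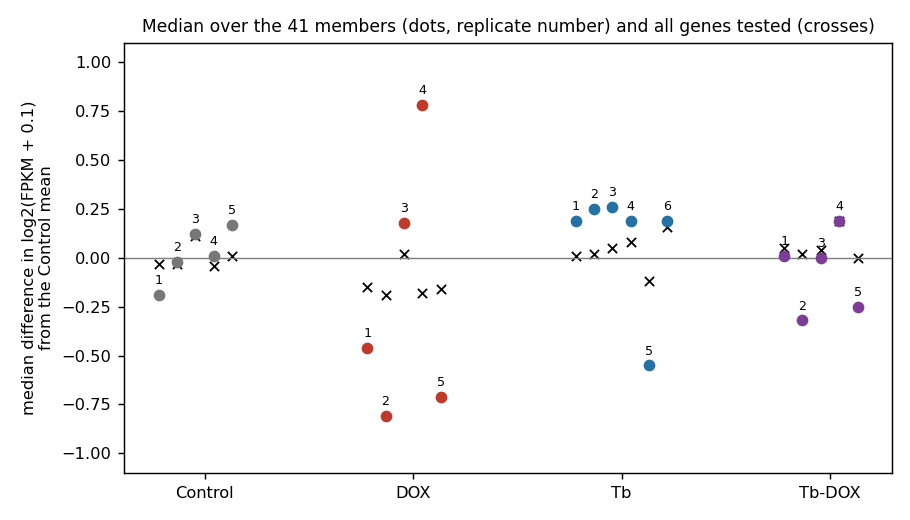
Median over the 41 members (dots, labelled with the replicate number) and over all genes tested (crosses) of the difference in log2(FPKM + 0.1) from the Control mean, one point per library, by group. The DOX dots run from -0.81 to 0.78 and the dot of Tb replicate 5 lies at -0.55, while the crosses stay between -0.19 and 0.19.

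DOX was first compared with Control in mice without a tumor. With all libraries, 6 of the 36 tested members rose (16.7%) and 3 fell (8.33%), by edgeR's quasi-likelihood test with Benjamini-Hochberg adjustment over all genes tested and a threshold of 0.05. Over all genes tested, 18.0% rose and 18.2% fell, so neither share of members exceeded the background. The members that rose were Igtp, Irgm1, Irgm2, Iigp1, Gbp6 and Ifit2, and those that fell were Oas2, Oasl2 and Ifi27l2a. The median log2 fold change was 0.04 over the 36 members and 0.00 over all genes tested. With scaling by library totals alone, 10.2% of all genes tested rose and 25.2% fell, the median over all genes was -0.14, and 5 members rose and 3 fell. With limma on log2(FPKM + 0.1), which uses the deposited FPKM without TMM scaling, 0 members rose and 6 fell, against 9.81% and 25.7% of all genes tested.

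DOX replicate 4 was the highest DOX library in most members, so values without it are lower by construction. Without it, of the 36 members, 3 rose (8.33%; Ifit2, Irgm1 and Irgm2) and 10 fell (27.8%; Ifit3b, Oas2, Oasl2, Bst2, Ifi27l2a, Ifi44, Xaf1, Rtp4, Dtx3l and Trim30a). The background was then 15.4% of all genes tested higher and 15.4% lower. When the level filter was also removed, 1 member rose (Ifit2) and 9 fell, against 5.84% and 5.90% of all 34543 genes in that fit. Without DOX replicate 1, 8 members rose and 2 fell, against 17.7% and 17.5%, and without DOX replicate 5, 8 rose and 2 fell, against 18.7% and 18.0%. In the fit with the filter and without DOX replicate 4, the median log2 fold change was -0.38 over the 36 members and 0.00 over all genes tested. In 8 of the 36 members (Dtx3l, Ifi27l2a, Ifi44, Ifit3b, Oas2, Oasl2, Trim30a and Xaf1) every one of the other 4 DOX libraries lay below every Control library, as in 20.2% of all genes tested.

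**Figure D3:**
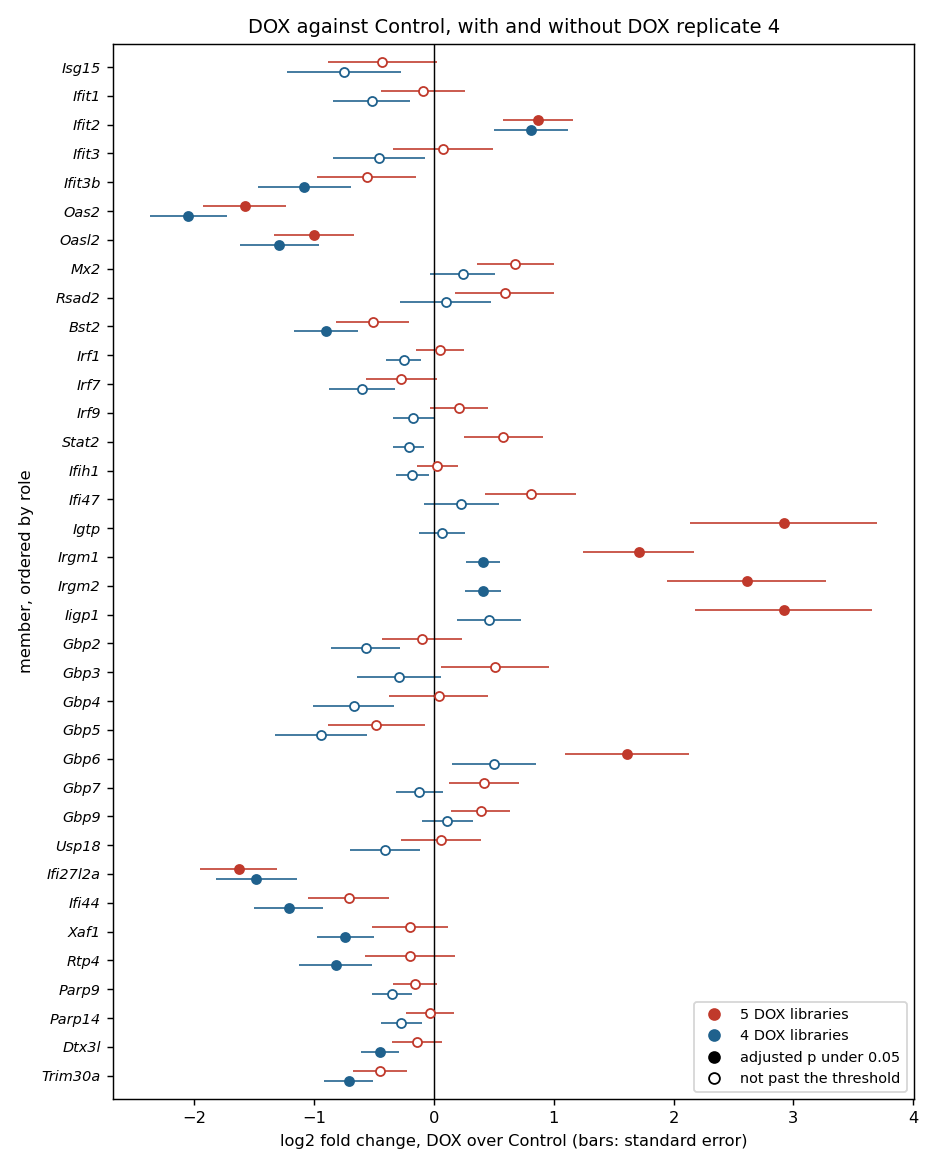
Log2 fold change of DOX over Control (horizontal axis, bars of 1 standard error) for the 36 tested members (vertical axis, ordered by role), with all 5 DOX libraries (red) and without DOX replicate 4 (blue), filled where the adjusted p was under 0.05. Igtp, Irgm1, Irgm2, Iigp1 and Gbp6 move from 1.61 or more to 0.50 or less, and Oas2 and Ifi27l2a stay below -1 in both.

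The immunity-related GTPases, which coat and disrupt the vacuoles of intracellular microbes, gave the largest values. Igtp (IRGM3) was at 3.08, 3.59, 4.03, 3.07 and 3.93 FPKM in the Control libraries and at 3.55, 2.23, 3.41, 104 and 4.34 FPKM in DOX replicates 1 to 5. The Tb libraries ran from 4.67 through a median of 5.45 to 6.85 FPKM, and the Tb-DOX libraries were at 5.50, 3.60, 5.16, 4.56 and 3.05 FPKM. The library DOX replicate 4 alone stood far above the rest. With 0.1 FPKM added to both, it was at 29.1-fold the median of the other 4 DOX libraries, and these 4 overlapped the Control range. The fitted log2 fold change of DOX over Control was 2.92 (SE 0.781, edgeR adjusted p = 0.00615), with 1 of 5 DOX libraries far above the Control range, and 0.07 (adjusted p = 0.820) without DOX replicate 4.

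Irgm2, a regulatory member of the family, was at 2.34, 2.82, 2.38, 3.11 and 3.18 FPKM in Control and at 3.31, 2.72, 4.21, 61.6 and 3.27 FPKM in DOX. It ran from 3.80 through 5.22 to 5.91 FPKM in Tb and was at 4.25, 3.14, 3.55, 4.46 and 2.42 FPKM in Tb-DOX. The log2 fold change of DOX over Control was 2.61 (SE 0.661, edgeR adjusted p = 0.00412), and 0.41 (SE 0.153, adjusted p = 0.0476) without DOX replicate 4, where 3 of the other 4 DOX libraries exceeded every Control library. Irgm1, also a regulatory member, was at 2.75, 3.05, 2.50, 3.47 and 3.90 FPKM in Control and at 4.06, 2.99, 4.87, 30.4 and 3.46 FPKM in DOX. Its Tb libraries ran from 3.42 through 3.76 to 4.82 FPKM, and its Tb-DOX libraries were at 3.55, 3.18, 3.98, 3.95 and 2.76 FPKM. Again DOX replicate 4 lay far above a group of otherwise overlapping values. The log2 fold change was 1.71 (SE 0.464, edgeR adjusted p = 0.00681) with all libraries and 0.41 (SE 0.145, adjusted p = 0.0355) without DOX replicate 4.

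Iigp1 (IRGA6), an effector member, was at 4.18, 3.68, 3.36, 4.38 and 4.72 FPKM in Control and at 4.96, 3.59, 7.13, 115 and 5.03 FPKM in DOX. Its Tb libraries ran from 2.69 through 7.77 to 12.1 FPKM, the lowest being Tb replicate 5, and its Tb-DOX libraries were at 7.02, 5.87, 5.35, 8.25 and 3.64 FPKM. DOX over Control gave a log2 fold change of 2.92 (SE 0.740, edgeR adjusted p = 0.00424), and 0.46 (adjusted p = 0.196) without DOX replicate 4. Ifi47 (IRG-47), the fifth of the family, was less extreme, at 4.11 FPKM in DOX replicate 4 against 2.30 FPKM in the next highest library, with a log2 fold change of 0.81 (adjusted p = 0.0992). Among all genes tested, ranked by the difference between DOX replicate 4 and the other DOX libraries, Igtp took place 14, Iigp1 place 18, Irgm2 place 23 and Irgm1 place 52. The table places Igtp and Irgm2 on overlapping coordinates and the same strand, so their counts are not fully separate, and Iigp1 has close copies in the genome whose reads the counting could have split.

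**Figure D4:**
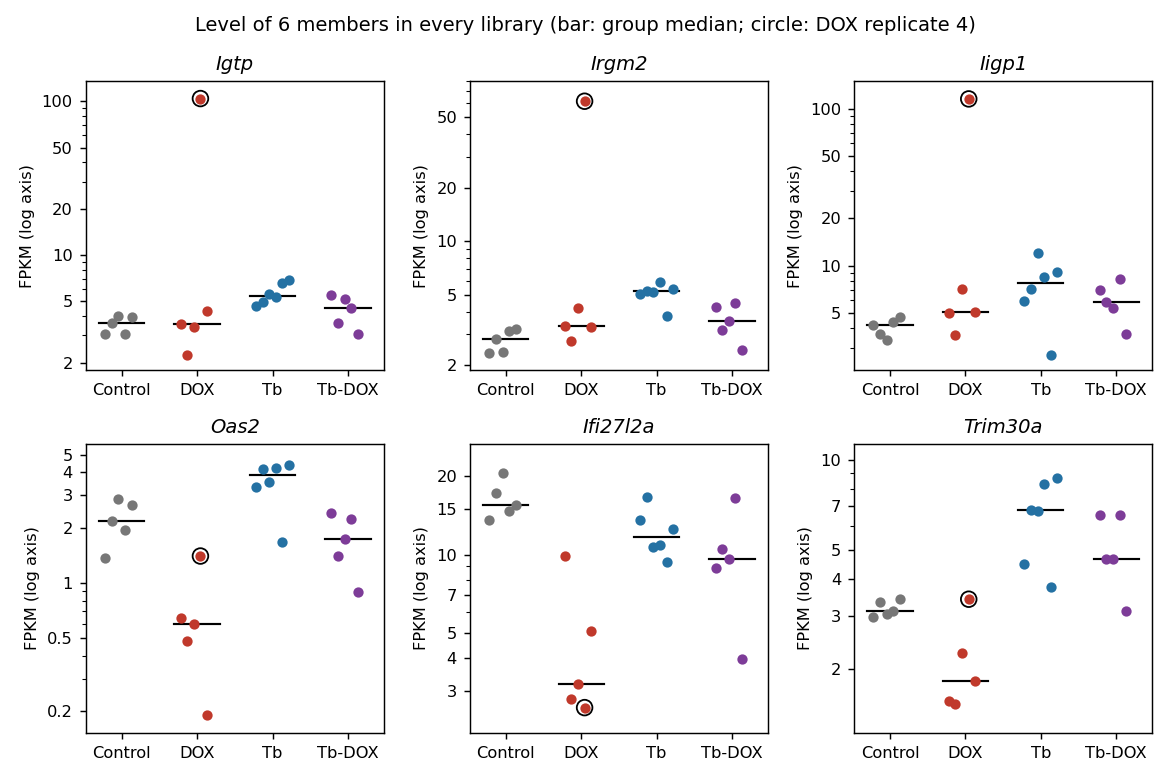
FPKM (log axis) of Igtp, Irgm2, Iigp1, Oas2, Ifi27l2a and Trim30a in every library, by group, with group medians as bars and DOX replicate 4 circled. In the upper row DOX replicate 4 lies at 104, 61.6 and 115 FPKM and all other libraries at 12.1 FPKM or below, and in the lower row the DOX group holds the lowest library of each gene.

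The guanylate-binding proteins, large GTPases that act with the immunity-related GTPases, gave a weaker form of this pattern. Gbp6 was at 0.920, 1.00, 0.870, 0.380 and 0.71 FPKM in Control and at 1.27, 1.32, 0.670, 6.60 and 0.71 FPKM in DOX. It ran from 0.470 through 0.71 to 1.63 FPKM in Tb and was at 1.91, 1.65, 0.71, 1.17 and 0.840 FPKM in Tb-DOX. Only DOX replicate 4 exceeded 2 FPKM, and the groups otherwise overlapped. The log2 fold change of DOX over Control was 1.61 (SE 0.517, edgeR adjusted p = 0.0185), and 0.50 (adjusted p = 0.288) without DOX replicate 4. Gbp6 has near-identical neighbours, so its counts are uncertain.

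Gbp9, the most abundant of this family, was at 6.88, 7.44, 6.62, 7.88 and 9.31 FPKM in Control and at 7.75, 5.32, 12.9, 15.1 and 4.83 FPKM in DOX. It ran from 3.99 through 6.88 to 7.87 FPKM in Tb and was at 7.61, 5.18, 8.25, 9.79 and 5.32 FPKM in Tb-DOX. DOX replicates 3 and 4 were the highest and the groups overlapped, and its log2 fold change of 0.39 did not pass the test (edgeR adjusted p = 0.211). The other 5 (Gbp2, Gbp3, Gbp4, Gbp5 and Gbp7) had log2 fold changes from -0.48 to 0.51 with none past the test, although DOX replicate 4 was at 13.3 FPKM for Gbp3 and 12.8 FPKM for Gbp7, above every other library. Without DOX replicate 4, none of the 7 passed and their median log2 fold change was -0.29, against 0.39 with it.

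Among the antiviral effectors, 2 of the 10 tested fell and 1 rose with all libraries, against 18.2% and 18.0% of all genes tested. Oas2, which makes the short oligoadenylates that activate RNase L, was at 1.37, 2.17, 2.85, 1.94 and 2.65 FPKM in Control and at 0.640, 0.480, 0.60, 1.40 and 0.190 FPKM in DOX. It ran from 1.67 through 3.85 to 4.41 FPKM in Tb and was at 2.41, 1.40, 1.74, 2.23 and 0.890 FPKM in Tb-DOX. Here 4 DOX libraries lay below every Control library, and DOX replicate 4 lay just above the lowest of them. In DOX over Control its log2 fold change was -1.58 (SE 0.350, edgeR adjusted p = 0.00157), and -2.05 (SE 0.320, adjusted p = 1.24e-04) without DOX replicate 4.

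Oasl2, an OAS-like protein, was at 1.55, 1.51, 1.89, 1.67 and 1.96 FPKM in Control and at 0.520, 0.650, 0.980, 1.32 and 0.430 FPKM in DOX. It ran from 0.210 through 1.36 to 1.53 FPKM in Tb and was at 0.90, 1.04, 1.23, 1.09 and 0.790 FPKM in Tb-DOX. Every DOX library lay below every Control library, as in 19.1% of all genes tested. The log2 fold change was -1.0 (SE 0.330, edgeR adjusted p = 0.0216), and the call was lost without DOX replicate 1 (-0.89, adjusted p = 0.0539) or DOX replicate 5 (-0.84, adjusted p = 0.0567).

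Ifit2 went up, at 5.89, 4.86, 4.45, 5.42 and 5.63 FPKM in Control and at 6.13, 4.00, 19.6, 9.75 and 5.24 FPKM in DOX. It ran from 2.79 through 6.05 to 7.51 FPKM in Tb and was at 5.79, 6.17, 5.78, 4.50 and 3.91 FPKM in Tb-DOX. DOX replicates 3 and 4 were high and the other 3 DOX libraries overlapped the Control range. Its log2 fold change was 0.87 (SE 0.289, edgeR adjusted p = 0.0234), with the call lost without DOX replicate 3 (0.44, adjusted p = 0.154) or Control replicate 3 (0.79, adjusted p = 0.0558). Of the other tested effectors, Isg15, the ubiquitin-like modifier, was at -0.43, Ifit1 at -0.09, Ifit3 at 0.08, Mx2 at 0.68, and Rsad2 (viperin) at 0.59 on the log2 fold change scale, with none past the test with or without DOX replicate 4. Ifit3b at -0.56 and Bst2 (tetherin), which holds budding virus at the cell surface, at -0.51 passed only without DOX replicate 4, at -1.08 (SE 0.389, adjusted p = 0.0391) and -0.90 (SE 0.271, adjusted p = 0.0163). Ifit3 and Ifit3b are near-identical copies, so their split is uncertain.

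Among the regulators, Ifi27l2a gave the largest fall. It was at 13.6, 17.2, 20.4, 14.7 and 15.5 FPKM in Control and at 9.84, 2.80, 3.18, 2.59 and 5.09 FPKM in DOX, with no overlap between the groups. It ran from 9.36 through 11.7 to 16.6 FPKM in Tb and was at 8.88, 10.5, 9.58, 16.4 and 3.97 FPKM in Tb-DOX. The log2 fold change of DOX over Control was -1.63 (SE 0.324, edgeR adjusted p = 6.40e-04), and leaving out any 1 library kept it between -2.11 and -1.48 and past the test. In DOX replicate 4, where most members were high, this gene had its lowest value of all 21 libraries.

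The other 8 regulators did not pass with all libraries. Without DOX replicate 4, Ifi44 (-1.21), Rtp4 (-0.82), a chaperone-like protein, Xaf1 (-0.74), an antagonist of the apoptosis inhibitor XIAP, Trim30a (-0.71), a ubiquitin ligase that restrains Toll-like receptor signaling, and Dtx3l (-0.45), which works as a complex with Parp9, fell on the log2 scale (edgeR adjusted p from 0.00374 to 0.0467). Usp18, which removes ISG15 and restrains the receptor, Parp9 and Parp14 did not pass in either fit. The median log2 fold change over the 9 regulators was -0.20 with all libraries and -0.71 without DOX replicate 4. Dtx3l and Parp9 overlap on opposite strands and the sources do not say whether counting used strand, so reads in the overlap cannot be told apart.

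The transcription factors and sensors did not pass in either fit. Irf1 was at 4.15, 4.01, 4.46, 3.53 and 4.44 FPKM in Control and at 2.45, 2.87, 4.70, 6.59 and 2.78 FPKM in DOX. It ran from 4.73 through 5.66 to 7.58 FPKM in Tb and was at 5.55, 5.69, 5.40, 7.88 and 4.40 FPKM in Tb-DOX. In DOX, 3 libraries lay below and 2 above the Control range, and the log2 fold change was 0.05 (edgeR adjusted p = 0.869). Stat2, a subunit of the complex that binds the ISRE, was at 11.9 FPKM in DOX replicate 4 and from 2.07 to 3.99 FPKM in the other 4 DOX libraries, with a log2 fold change of 0.58 (adjusted p = 0.175). Irf9, Irf7 and Ifih1 (MDA5, a sensor of double-stranded RNA) were at 0.21, -0.27 and 0.03.

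Markers of several cell types moved with these values. In DOX against Control, 5 of 6 neutrophil markers rose (median log2 fold change 3.89), 5 of the 5 tested erythroid markers fell (median -3.34), 2 of 6 cardiomyocyte markers rose, and 1 of 5 fibroblast markers rose and 2 fell. The 1 tested B cell marker fell (-1.55) and 1 of 6 endothelial markers fell. Of the 2 tested T cell markers 1 rose and 1 fell. Cd3e was at 0 to 0.32 FPKM in Control and 0.98 to 66.7 FPKM in DOX, and Thy1 at 1.81 to 2.19 and 0.32 to 0.73 FPKM. Of 3 plasmacytoid dendritic cell markers 1 rose and 1 fell (0 and 2 without DOX replicate 4). Bst2, 1 of these 3, is itself a member of the set and fell only without DOX replicate 4, so those counts partly restate a member. The erythroid sum was 252 to 1094 FPKM in Control and 4.77 to 146 FPKM in DOX. Of 8 macrophage markers, 6 fell with or without DOX replicate 4, and their summed level was 128 to 157 FPKM in Control and 54.8 to 92.6 FPKM in DOX. In bulk hearts, fewer cells of a type and less RNA per cell cannot be told apart, and the part of these cell types in the members' values was not tested. In DOX replicate 4 the macrophage sum was 74.6 FPKM, the median of its group. The T cell marker Cd3e was at 66.7 FPKM in DOX replicate 4 against at most 9.74 FPKM elsewhere, but the other 7 T cell markers summed to 0.810 FPKM there, within the 0.540 to 3.34 FPKM of the other 20 libraries, with Cd3d at 0 counts and Cd8a at 0.21 FPKM (11 counts, against at most 0.15 FPKM elsewhere). The 6 NK cell markers summed to 0.0700 FPKM in DOX replicate 4. The neutrophil sum was 32.9 FPKM there, within the 8.25 to 83.8 FPKM of the DOX group.

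Tb was compared with Control next, which gives the tumor alone. Of the 36 tested members, 1 rose (2.78%) and 0 fell, against 5.0% and 1.29% of all genes tested. Beside that count, 2 of the 36 members had an unadjusted p under 0.05, as had 2862 of all 13990 genes tested. The median log2 fold change was 0.09 over the members and -0.01 over all genes tested. In 4 members (Igtp, Irf1, Irgm2 and Trim30a) every Tb library exceeded every Control library, as in 4.55% of all genes tested.

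Trim30a was the member that rose. It was at 2.99, 3.35, 3.06, 3.13 and 3.42 FPKM in Control, and its Tb libraries ran from 3.75 through 6.77 to 8.69 FPKM. It was at 1.57, 1.53, 2.26, 3.42 and 1.82 FPKM in DOX and at 6.55, 4.66, 4.66, 6.54 and 3.13 FPKM in Tb-DOX. Tb over Control gave a log2 fold change of 0.96 (SE 0.214, edgeR adjusted p = 0.00691), higher in 6 of 6 Tb libraries, and stayed between 0.88 and 1.06 and past the test when any 1 library was left out.

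One spread per gene is estimated over all 4 groups, so the single high DOX library also widened the errors of comparisons that do not use DOX. Without DOX replicate 4, 5 members rose in Tb against Control and 0 fell, against 5.15% and 1.32% of all genes tested. They were Trim30a at 0.96, Irgm2 at 0.83 (SE 0.139, edgeR adjusted p = 3.82e-04), Iigp1 at 0.83 (SE 0.243, adjusted p = 0.0439), Igtp at 0.64 (SE 0.17, adjusted p = 0.0256) and Irf1 at 0.45 (SE 0.130, adjusted p = 0.0382). The fold changes were the same with DOX replicate 4 in the fit, while the SE was 0.619 for Irgm2 and 0.728 for Igtp. Oas2 was at 0.65 and did not pass in either fit.

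Oas3, a large oligoadenylate synthetase below the level filter, had 0 to 9 counts in the Control libraries, 0 to 21 in DOX, 48 to 136 in Tb and 16 to 55 in Tb-DOX. Every Tb library lay above every Control and DOX library. In a fit without the filter, its log2 fold change was 4.07 in Tb over Control (SE 0.563, edgeR adjusted p = 2.77e-06) and 2.03 in Tb-DOX over DOX (SE 0.541, adjusted p = 0.0154). Its level in FPKM was 0.738 ± 0.296 (SD, n = 6) in Tb and 0.0420 ± 0.0327 (SD, n = 5) in Control. Of the other members below the filter, Oasl1 had a log2 fold change of 1.25 in Tb over Control (adjusted p = 0.178), and Zbp1, a sensor of Z-form nucleic acids, and Mx1 were at 0.77 and 0.43 (adjusted p = 0.462 and 0.825).

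Neutrophil markers moved with the tumor. All 6 rose in Tb against Control, as did the 1 tested B cell marker and 1 of 8 macrophage markers, while 1 of 6 endothelial markers fell. Of 3 plasmacytoid dendritic cell markers 1 rose and 1 fell, and Bst2, 1 of these 3 and a member of the set, did not pass. The neutrophil markers had a summed level of 1.03 to 4.42 FPKM in Control, 8.25 to 83.8 FPKM in DOX, 769 to 7212 FPKM in Tb and 1169 to 5644 FPKM in Tb-DOX. The macrophage sum was 128 to 157 FPKM in Control and 177 to 252 FPKM in Tb. The part of these cells in the levels of Trim30a and Oas3 was not tested.

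DOX was then compared within the tumor-bearing mice, as Tb-DOX against Tb. Of the 36 tested members 0 rose and 0 fell by edgeR, against 2.18% and 2.54% of all genes tested, while 3 members had an unadjusted p under 0.05, as had 2855 of all 13990 genes tested. DESeq2 called 0 members higher and 2 lower, against 3.41% and 4.27% of all genes. The median log2 fold change was -0.33 over the members and -0.02 over all genes tested. The lowest values were Ifit3b at -1.27 (SE 0.405, edgeR adjusted p = 0.0746) and Oas2 at -1.04 (SE 0.317, adjusted p = 0.0613). Mx2 was the 1 member for which every Tb-DOX library lay below every Tb library, as in 2.04% of all genes tested. When DOX replicate 4 was left out, Ifit3b (adjusted p = 0.0364), Oas2 (adjusted p = 0.0240) and Irgm2 (-0.53, adjusted p = 0.0275) fell and 0 members rose, against 2.83% and 2.44% of all genes tested. Beside these values, 5 of the 5 tested erythroid markers fell in Tb-DOX against Tb (median -5.28, with a summed level of 527 to 975 FPKM in Tb and 2.99 to 40.0 FPKM in Tb-DOX), 2 of 8 macrophage markers, 1 of 5 fibroblast markers and the 1 tested B cell marker fell, and 2 of 6 cardiomyocyte markers rose. The part of these cell types in the members' values was not tested.

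**Figure D5:**
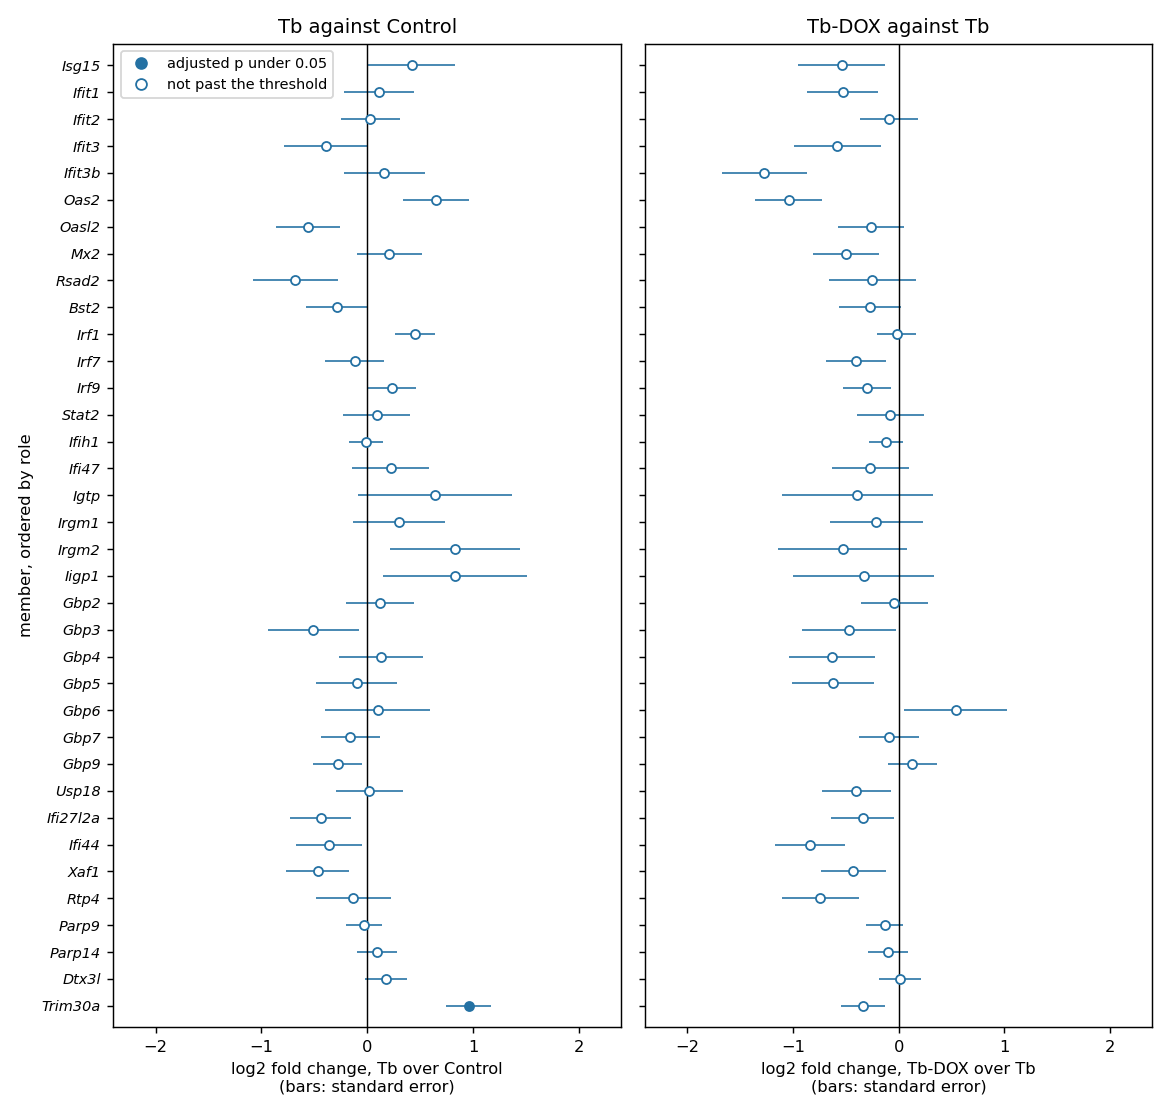
Log2 fold change (horizontal axes, bars of 1 standard error) of Tb over Control (left) and Tb-DOX over Tb (right) for the 36 tested members (vertical axis, ordered by role), filled where the adjusted p was under 0.05, with all libraries in the fit. Trim30a at 0.96 is the filled point on the left, no point is filled on the right, and Ifit3b at -1.27 and Oas2 at -1.04 lie farthest to the left there.

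The interaction tested whether the log2 fold change by DOX differed between tumor-bearing and tumor-free mice. Of the 36 members, 0 were higher and 2 lower (5.56%), Irgm2 at -3.15 (SE 0.895, edgeR adjusted p = 0.0341) and Iigp1 at -3.24 (SE 0.989, adjusted p = 0.0445), against 3.95% higher and 5.0% lower of all genes tested. Leaving out 1 library at a time lost the call of Irgm2 in 9 of 21 fits, at -3.22 to -3.05 (adjusted p from 0.0515 to 0.0577). The call of Iigp1 was lost in 14 of 21, at -0.79 without DOX replicate 4 and at -3.35 to -3.07 in the others. Neither was called with limma at either pseudocount or with the replicate block, and DESeq2 gave no adjusted p for either. Igtp at -3.30 (adjusted p = 0.0517) and Irgm1 at -1.92 (adjusted p = 0.0591) fell short of the threshold. Without DOX replicate 4, Irgm2 at -0.94 (SE 0.205, adjusted p = 0.0211) passed and Iigp1 at -0.79 (adjusted p = 0.171) did not, against 2.31% higher and 3.15% lower of all genes tested. The other members, Oas2 and Ifi27l2a among them, did not pass in either of these fits. Ifi27l2a came nearest among those on the positive side, at 1.28 (SE 0.436, adjusted p = 0.0639). It passed, as the 1 member called higher, with DESeq2, with limma at either pseudocount, with scaling by library totals, and without DOX replicate 1 or Tb-DOX replicate 5. In the interaction 5 of 6 neutrophil markers and 1 of the 5 tested erythroid markers were lower, 2 of 5 fibroblast markers and 1 of 6 endothelial markers were higher, and of 2 tested T cell markers 1 was higher and 1 lower. Their part in the members' values was not tested.

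Tb-DOX was last compared with DOX, which sets the tumor against none under DOX. Of the 36 members 2 rose (5.56%; Oas2 and Trim30a) and 8 fell (22.2%; Ifit2, Mx2, Rsad2, Igtp, Irgm1, Irgm2, Iigp1 and Gbp3), against 9.52% and 7.93% of all genes tested. When DOX replicate 4 was left out, 4 rose (11.1%; Oas2, Irf1, Dtx3l and Trim30a) and 0 fell, against 7.56% and 5.75%. Without DOX replicate 5, 2 rose and 12 fell, against 9.54% and 9.46%, and without DOX replicate 2, 1 rose and 9 fell, against 8.37% and 6.56%. All 8 lower calls were lost without DOX replicate 4. Of 21 fits that left out 1 library, the call was lost in 7 for Mx2, 6 for Gbp3, 5 for Ifit2 and 3 each for Rsad2 and Iigp1. For Igtp, Irgm1 and Irgm2 it was lost in 1. The log2 fold changes of the GTPases shrank most, from -2.66 to 0.18 in Igtp, from -2.42 to 0.04 in Iigp1, from -2.31 to -0.11 in Irgm2 and from -1.61 to -0.32 in Irgm1. Ifit2 was at -0.92 with all libraries and -0.87 (adjusted p = 0.0639) without DOX replicate 4, and Rsad2 at -1.51 and -1.02 (adjusted p = 0.0854). Gbp3 was at -1.49 and -0.69 (adjusted p = 0.210), and Mx2 at -0.97 and -0.54 (adjusted p = 0.20). With limma at either pseudocount and all libraries kept, 4 members rose and 0 fell, against 17.8% and 1.95% of all genes tested with a pseudocount of 0.1 and 16.8% and 2.15% with 1. With DESeq2, 3 of the 32 members with an adjusted p rose and 4 fell, against 10.6% and 9.94%. Trim30a was at 1.07 (SE 0.225, edgeR adjusted p = 0.00248) with all libraries and at 1.32 (SE 0.206, adjusted p = 2.11e-04) without DOX replicate 4. Oas2 was at 1.18 (SE 0.350, adjusted p = 0.0233) and 1.66 (SE 0.319, adjusted p = 0.00160), and its call was lost without DOX replicate 2 (adjusted p = 0.0549) or 3 (0.0585), or Tb-DOX replicate 1 (0.0690) or 4 (0.0540), with log2 fold changes of 1.03 to 1.12. Beside these values, 6 of 6 neutrophil markers (median log2 fold change 6.07) and 4 of 8 macrophage markers rose in Tb-DOX against DOX, and 2 of 5 fibroblast and 2 of the 5 tested erythroid markers fell. Of the 2 tested T cell markers, Cd3e was at 0.98 to 66.7 FPKM in DOX and 0.53 to 2.34 FPKM in Tb-DOX. Thy1 was at 0.32 to 0.73 and 0.69 to 1.45 FPKM. The part of these cell types in the members' values was not tested.

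The ligands above the set in the pathway were close to absent. None of 21 interferon ligand genes reached the level filter. Ifnb1 had 0 counts in all 21 libraries, and Ifng had 0 to 4 counts in any library and 0 in DOX replicate 4. Of 13521200 to 18601445 counts per library, a count of 0 allows up to 3 counts, and this limit covers counting error only.

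The receptors were expressed, and 1 of the 6 receptor genes fell (Ifngr2) and 1 rose (Ifnlr1) in DOX against Control, against 18.2% and 18.0% of all genes tested. Ifngr2, a chain of the interferon gamma receptor, was at 30.8 ± 5.71 FPKM in Control and 10.4 ± 2.83 FPKM in DOX (SD, n = 5 each), a log2 fold change of -1.44 (SE 0.251, edgeR adjusted p = 2.01e-04). It was, without DOX replicate 4, -1.29 (adjusted p = 7.72e-04). Ifngr1 was at 24 ± 0.620 and 17.9 ± 1.75 FPKM (-0.28, adjusted p = 0.116). Of the type I receptor, Ifnar1 was at 4.66 ± 0.904 and 4.16 ± 0.360 FPKM (-0.03, adjusted p = 0.866) and Ifnar2 at 5.57 ± 0.607 and 4.64 ± 0.650 FPKM (-0.13, adjusted p = 0.472), and Ifnar2 rose in Tb against Control (0.55, SE 0.128, adjusted p = 0.0103). Ifnlr1, a chain of the interferon lambda receptor, rose both in DOX against Control (1.02, SE 0.266, edgeR adjusted p = 0.00516) and in Tb against Control (1.1, SE 0.256, adjusted p = 0.00945).

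Of the sensors of nucleic acids, Sting1, the adaptor of cytosolic DNA sensing, rose in Tb against Control from 1.38 ± 0.178 (SD, n = 5) to 4.49 ± 1.27 FPKM (SD, n = 6), a log2 fold change of 1.66 (SE 0.262, edgeR adjusted p = 1.77e-04). It was at 0.04 in DOX against Control (adjusted p = 0.922). Cgas, which makes the messenger that STING binds, lay below the level filter at 0.0700 to 0.870 FPKM. Ddx58 (RIG-I), a sensor of viral RNA, was at -0.17 in DOX against Control (adjusted p = 0.439) and 0.08 in Tb against Control (adjusted p = 0.794).

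Over the 5 pathway lists together (ligands, receptors, JAK-STAT-IRF signaling, nucleic acid sensing and 55 other interferon-stimulated genes), 71 of 113 genes in the table were tested. In DOX against Control 8 of the 71 rose and 12 fell, against 18.0% and 18.2% of all genes tested, and without DOX replicate 4, 4 rose and 16 fell, against 15.4% in each direction. In Tb against Control 13 rose and 0 fell, against 5.0% and 1.29%, and in Tb-DOX against Tb 0 rose and 2 fell, against 2.18% and 2.54%. In Tb-DOX against DOX 13 rose and 2 fell, against 9.52% and 7.93%, and in the interaction 2 were higher and 2 lower, against 3.95% and 5.0%. All 6 neutrophil markers rose in both comparisons in which 13 of these genes rose. In DOX against Control, where 8 of the 71 rose and 12 fell, 5 of the 6 neutrophil markers rose. The part of neutrophils in these genes was not tested. Among the 40 tested of the 55 other interferon-stimulated genes, 4 rose and 7 fell in DOX against Control, and 2 rose and 10 fell without DOX replicate 4.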

How the data were processed

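RNA of mouse hearts was measured in 21 libraries. Per the labels, mRNA was enriched with oligo(dT) beads or by rRNA depletion and sequenced as paired ends of 150 bases. Per the submitters' processing notes the build was GRCm39 and the tools included cutadapt, FastQC, HISAT2, HTSeq 0.6.1 and DESeq2 1.34.0. The authors deposited 1 table with whole-number read counts and FPKM values per gene and library. The deposited FPKM equalled the count divided by exon length and library total, within 0.01, in 100% of values. Each library had its own columns, and replicates were not pooled. Members were matched by symbol, and groups came from the labels.

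The main test was edgeR's quasi-likelihood F test (edgeR 4.0.16, R 4.3.3) on the counts of 13990 genes whose FPKM averaged 0.5 or more, with TMM scaling and 1 coefficient per group in a single fit. Each SE was derived from the F statistic. Benjamini-Hochberg adjustment ran over all 13990 genes, with calls at an adjusted p under 0.05. Alternatives were limma 3.58.1, DESeq2 1.42.0, other scalings, filters and thresholds, a replicate block and leaving out each library. The test was run on simulated counts with known changes, most of which it recovered. Replicate pairs differed beyond counting noise (chi-square per degree of freedom of at least 5.79), so none was counted as 1 library. Per-library values are printed for the up to 5 members that rose and 5 that fell most in a comparison, those past the interaction test and the most abundant of each role. The members and lists were chosen with earlier results of these data known. The fit without the filter and without DOX replicate 4 was added after the data were seen. The values of 1 gene of the pathway lists are not reported here.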

Additional observations from a re-analysis of the deposited data

Results flagged for a closer look

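In each group of 5 or 6 libraries, the highest and lowest values of the 36 tested members were checked for a gap to the next library that was large against the whole range of the group, on the log2(FPKM + 0.1) scale. Of 144 checks 21 were marked, and chance marks about 1 in 20.

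DOX replicate 4 was marked as high in 5 members. It was at 104.08 FPKM for Igtp (2.23 to 4.34 in the other DOX libraries), 30.36 FPKM for Irgm1 (2.99 to 4.87), 61.62 FPKM for Irgm2 (2.72 to 4.21), 115.22 FPKM for Iigp1 (3.59 to 7.13) and 6.60 FPKM for Gbp6 (0.670 to 1.32).

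Tb replicate 5 was marked as low in 11 members. Among antiviral effectors it was at 1.19 FPKM for Ifit3 (2.35 to 3.23 in the other Tb libraries), 1.67 FPKM for Oas2 (3.34 to 4.41) and 0.21 FPKM for Oasl2 (1.3 to 1.5). Among the GTPases it was at 3.80 FPKM for Irgm2 (5.06 to 5.91), 1.33 FPKM for Gbp4 (4.56 to 7.54), 2.13 FPKM for Gbp7 (4.36 to 5.67) and 3.99 FPKM for Gbp9 (6.39 to 7.87). Among the regulators it was at 1.66 FPKM for Rtp4 (2.63 to 3.38), 3.41 FPKM for Parp9 (5.07 to 5.90), 2.08 FPKM for Parp14 (3.89 to 5.03) and 2.18 FPKM for Dtx3l (3.81 to 4.57). In the same library the summed endothelial (158 FPKM), fibroblast (168 FPKM) and erythroid (975 FPKM) markers were the highest of the 6 Tb libraries, as was the T cell sum (12.5 FPKM), of which Cd3e made up 9.74 FPKM. The cardiomyocyte (10117 FPKM), NK cell (0.510 FPKM) and plasmacytoid dendritic cell (6.29 FPKM) sums were the lowest, and the summed neutrophil markers were at 6461 FPKM, within a Tb range of 769 to 7212 FPKM. Their part in these values was not tested.

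The other 5 marked values were single ones. Ifit1 was at 0.62 FPKM in Control replicate 1, Gbp2 at 6.78 FPKM in Control replicate 3, Parp9 at 6.80 FPKM in Control replicate 5, Stat2 at 4.27 FPKM in Tb-DOX replicate 4 and Gbp5 at 0.66 FPKM in Tb-DOX replicate 5.

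The response to DOX differed between tumor-bearing and tumor-free mice by edgeR's interaction test in Irgm2 (-3.15 on the log2 scale) and Iigp1 (-3.24), 2 of 36 members lower (5.56%) against 5.0% of all genes tested. Without DOX replicate 4 the value of Irgm2 was -0.94, still past the test, and that of Iigp1 -0.79. When 1 library was left out, the call was lost in 9 of 21 fits for Irgm2, at -3.22 to -3.05, and in 14 of 21 for Iigp1, at -3.35 to -3.07 except without DOX replicate 4, and it was lost for both with limma and the replicate block. DESeq2 gave no adjusted p for either gene. In both genes DOX replicate 4 is the library marked above.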

How the results depend on the processing

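Leaving out 1 library at a time gave 8 to 13 members past the test in DOX against Control (9 with all libraries), 0 to 3 in Tb-DOX against Tb (0), 0 to 6 in the interaction (2), 1 to 5 in Tb against Control (1) and 4 to 14 in Tb-DOX against DOX (10). The interaction count was 6 without DOX replicate 1 (1 higher, 5 lower), against 4.69% and 5.78% of all genes tested. It was 5 without DOX replicate 5 and 4 without DOX replicate 2, all lower, against 7.14% and 4.50% of all genes lower. It was 1 (lower) without DOX replicate 4, Tb replicate 3, 4 or 6 or Tb-DOX replicate 4, and 1 (higher) without Tb-DOX replicate 5. It was 0 without any 1 of the Control replicates or Tb-DOX replicate 1, 2 or 3. The count in Tb-DOX against Tb was 3 without DOX replicate 4, 2 without Tb replicate 5 and 1 without DOX replicate 5. In Tb against Control it was 5 without DOX replicate 4. In Tb-DOX against DOX it was 4 without DOX replicate 4. It was 5 (1 higher, 4 lower) without DOX replicate 3, against 7.50% and 5.41% of all genes tested. It was 5 (1 higher, 4 lower) without Tb-DOX replicate 4, against 7.43% and 5.20%. It was 6 (1 higher, 5 lower) without Tb-DOX replicate 1, against 7.45% and 5.10%. Over the same fits the fold change in Tb-DOX against DOX ran from -2.96 to 0.18 in Igtp and from -2.70 to 0.04 in Iigp1. Among called members, Igtp and Iigp1 in Tb-DOX against DOX were the 2 that reversed direction, to 0.18 and 0.04 without DOX replicate 4, and to 0.17 and 0.02 when the filter was also removed. That added fit, chosen after the data were seen, gave 10 members in DOX against Control (1 higher, 9 lower, with the higher calls of Irgm1 and Irgm2 lost), 3 in Tb-DOX against Tb, 1 in the interaction, 5 in Tb against Control and 6 in Tb-DOX against DOX.

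In DOX against Control the count was 5 in several settings that differed in direction. With a mean of 5 FPKM required (8 members tested), 4 were higher and 1 lower, against 22.7% and 21.4% of all genes in that fit. With limma on log2(FPKM + 1), 0 were higher and 5 lower, against 9.61% and 24.9%. With DESeq2, 2 were higher and 3 lower, against 19.5% and 19.0%. With the replicate block, 2 were higher and 3 lower, against 17.1% and 17.8%. In Tb-DOX against Tb the count was 1 without the filter, 1 with limma on log2(FPKM + 1) and 2 with DESeq2, all lower. Of all genes, 0.944%, 1.73% and 4.27% were lower in these fits. In the interaction the count was 0 at an adjusted p under 0.01. It was 4 without the filter and 1 at a required mean of 5 FPKM, all lower, against 2.03% and 5.66% of all genes lower. It was 1 with DESeq2 and with limma at either pseudocount. Under DESeq2 and limma that 1 call was higher (Ifi27l2a), and under limma both lower calls were lost. Of all genes, 6.08% were higher with DESeq2, and 6.09% and 5.61% with limma at pseudocounts of 0.1 and 1. DESeq2 gave no adjusted p for 4 of the 36 members (Igtp, Irgm1, Irgm2 and Iigp1) in any comparison, so its counts leave them out. In Tb against Control the count was 0 with a minimum absolute log2 fold change of 1 or a required mean of 5 FPKM. It was 2 without the filter and 4 when the 2 groups were fitted alone, all higher, against 2.79% and 3.85% of all genes higher. In Tb-DOX against DOX the count was 1 (higher) at an adjusted p under 0.01, against 5.08% of all genes higher. It was 3 (lower) at a required mean of 5 FPKM, against 7.59% lower. With limma at either pseudocount it was 4 (4 higher and 0 lower, against 2 higher and 8 lower with edgeR). When the 2 groups were fitted alone it was 2 (1 higher, 1 lower), against 9.85% and 8.50% of all genes. The cause of these changes was not tested. Scaling by library totals moved the median of all genes to 0.14 in the interaction and 0.18 in Tb-DOX against DOX, with 1 member higher and 1 lower in the former (6.45% and 2.02% of all genes) and 3 higher and 6 lower in the latter (18.0% and 2.31%).

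Same-numbered libraries did not deviate together, with residual correlations from -0.219 to 0.194, so the numbers do not pair the libraries. With the replicate block 5 members passed in DOX against Control (2 higher, 3 lower), 0 in Tb-DOX against Tb, 0 in the interaction, 1 in Tb against Control and 3 in Tb-DOX against DOX (2 higher, 1 lower). Of all genes tested, 17.1% were then higher and 17.8% lower in DOX against Control, 2.59% and 3.08% in Tb-DOX against Tb, 1.74% and 1.88% in the interaction, 2.87% and 0.486% in Tb against Control, and 8.76% and 6.73% in Tb-DOX against DOX.

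Of the 41 members 5 were too low for the test. Irf7, Irf9, Igtp, Irgm2, Gbp4, Gbp6, Gbp9, Rtp4, Parp9 and Dtx3l overlap other genes and Ifit3 and Ifit3b are close copies, and how reads shared by such genes were counted is not given in the sources used here.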

Other observations

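Other interferon-stimulated genes outside the set are given here and were named after their values were seen. In DOX replicate 4, Nlrc5, the activator of MHC class I genes, was at 6.16 FPKM against at most 1.03 FPKM in the other 20 libraries, and Cd274, which encodes PD-L1, was at 14.9 FPKM against at most 3.27 FPKM. With all libraries both rose in DOX against Control by edgeR, at 2.69 (SE 0.698, adjusted p = 0.00498) and 1.78 (SE 0.531, adjusted p = 0.0121) on the log2 scale. Without DOX replicate 4 neither passed, at 0.93 (adjusted p = 0.104) for Nlrc5 and 0.37 (adjusted p = 0.288) for Cd274. Tgtp1, a further GTPase of the immunity-related family, rose by 1.97 (adjusted p = 0.00262) with all libraries and by 1.32 (adjusted p = 0.0155) without DOX replicate 4.

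In the tumor-bearing hearts, Ifitm1, an interferon-induced transmembrane protein, rose from 4.33 ± 0.410 FPKM (SD, n = 5) in Control to 85.6 ± 55.1 FPKM (SD, n = 6) in Tb, a log2 fold change of 4.25 (SE 0.420, edgeR adjusted p = 5.47e-07). Socs3, a feedback inhibitor of JAK-STAT signaling, rose from 0.678 ± 0.268 to 16.9 ± 23.3 FPKM, a log2 fold change of 4.67 (SE 0.728, adjusted p = 1.58e-04). Slfn1, a Schlafen family gene, rose from 0.0800 ± 0.0520 to 14.1 ± 9.64 FPKM (adjusted p = 1.03e-07), with 1 to 4 reads in the Control libraries and 111 to 917 in the Tb libraries. The summed neutrophil markers, at 1.03 to 4.42 FPKM in Control and 769 to 7212 FPKM in Tb, moved with these genes, and their part in them was not tested.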
